A study of Homo sapiens with 4 samples.

Results

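Pyruvate dehydrogenase and its kinases were followed through 26 probe sets of 10 genes, chosen as every probe set that the platform annotation lists for PDK1, PDK2, PDK3, PDK4, PDHA1, PDHB, PDP1, DLAT, LDHB or PC alone, out of 54675 probe sets on the array. A probe set is a group of short probes for one transcript. The cells were HCT116, an established human colon cancer line, held at 1% oxygen (hypoxia) or 21% oxygen (normoxia) for 72 h, all of them after 24 h without serum. Each group had 2 arrays, titled exp A and exp B, with a hypoxia and a normoxia array under each letter. The labels do not say whether the letters were separate cultures, so p-values measure only the spread between these arrays, which may be technical. The main fit did not pair the arrays by letter. Values are MAS5 signals, a background-adjusted brightness on a linear scale, and the number of arrays limits their precision.

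Pyruvate made by glycolysis enters the mitochondria and is converted to acetyl-CoA by the pyruvate dehydrogenase complex, in which E1 (the PDHA1 and PDHB proteins) decarboxylates pyruvate, E2 (DLAT) passes the acetyl group on through its lipoyl arm, and E3 (DLD) reoxidises that arm. Pyruvate dehydrogenase kinases, encoded by PDK1 to PDK4, phosphorylate the PDHA1 protein and switch the complex off, and phosphatases such as PDP1 switch it on again. PDK1 is a known target of hypoxia-inducible factor 1, and PDK4 is known to be induced by fasting. LDHB encodes the lactate dehydrogenase subunit that favours conversion of lactate to pyruvate, and PC encodes pyruvate carboxylase, which makes oxaloacetate from pyruvate.

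The 3 genes of the catalytic core, PDHA1, PDHB and DLAT, were lower in hypoxia on every one of their 8 probe sets, by 1.92-fold to 2.79-fold, and PDK2 was lower on both of its probe sets. A probe set of PDP1 was called higher, but only under some scalings of the arrays. PDK1, PDK3, PDK4, LDHB and PC were not called on any probe set. A mean signal over the 4 arrays of 97.4, which is the median over the whole array, was the lowest tested, and 24 of the 26 reached it; 1 probe set of PDK3 and 1 of PDK4 were not. Each difference is that of hypoxia less normoxia in log2(signal + 23.7), a scale that shrinks changes in dim probe sets, and a call is a Benjamini-Hochberg adjusted p under 0.05 over the 27304 probe sets tested with limma. By this rule 1 member probe set was called higher, 10 were called lower and 13 were not called, against 30.8% of all tested probe sets called, 13.7% higher and 17.1% lower. Both hypoxia values lay above both normoxia values in 8 of the 26 and below them in 10, and 68.5% of all tested probe sets had groups apart in this way. Without normoxia A, and likewise without normoxia B, 5 were called lower, and without hypoxia B 4 were called higher. With an array left out, its group is a lone array assumed to vary like the other group, which alone gives the spread. The median SD of log2 signals was 0.30 between the hypoxia arrays and 0.17 between the normoxia arrays. Of all probe sets, 11785 and 11108 were called without hypoxia A and B, and 4322 and 4481 without normoxia A and B. Probe sets of the same gene share their transcripts and are not independent of each other.

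The hypoxia label was checked on a list of 10 genes that hypoxia induces, of which 9 were tested and all 9 were higher, with differences of 2.08 to 6.11, where 36.3% of genes were called and 14.5% called higher. The largest, of ANGPTL4, and that of EGLN3 (3.76) were taken against normoxia B values of 82.2 and 92.9, below the background of that array as defined next. With the arrays scaled to their hybridization controls, ADM (0.64, adjusted p = 0.300), SLC2A1 (0.63, adjusted p = 0.476) and VEGFA (0.64, adjusted p = 0.368) were no longer called. Still called higher there were ANGPTL4 (4.73), ANKRD37 (3.58), NDRG1 (2.57), BHLHE40 (2.47), EGLN3 (2.39) and P4HA1 (1.46). All 6 epithelial markers stood above the control probe sets for Bacillus genes, taken as background, on all 4 arrays, and of 3 endothelial, 5 fibroblast and 2 leukocyte markers only COL1A1 did so. The summed signal of the epithelial list was 122842 and 111351 in hypoxia, against 75573 and 89446 in normoxia. The sums were 2355 and 2777, against 680 and 1162, for the fibroblast list, 270 and 303, against 89 and 215, for the endothelial list, and 65 and 95, against 64 and 227, for the leukocyte list, with hypoxia first in each. The hypoxia arrays differed from the normoxia arrays in their controls. The highest Bacillus control read 305.3 and 226 on hypoxia A and B, against 45.7 and 121 on normoxia A and B. Spiked hybridization controls had a geometric mean of 9869 and 8594 in hypoxia, against 2444 and 4595 in normoxia. The ratio of the 3′ to the 5′ probe set of ACTB, a measure of RNA integrity, was 1.66 and 1.77 in hypoxia, against 1.26 and 1.28 in normoxia, while that of GAPDH was 0.91 and 0.95 in hypoxia, against 0.92 and 1.00 in normoxia. The part of these array differences and marker sums in the results below was not tested. Scaling the arrays to the hybridization controls moved the median difference of all tested probe sets to -1.30. It was 0.05 as deposited and 0.19 when scaled to the 75th percentile. Directions here are signs against 0 under the scaling named, and with the hybridization controls a negative difference can lie above that median.

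**Figure D1:**
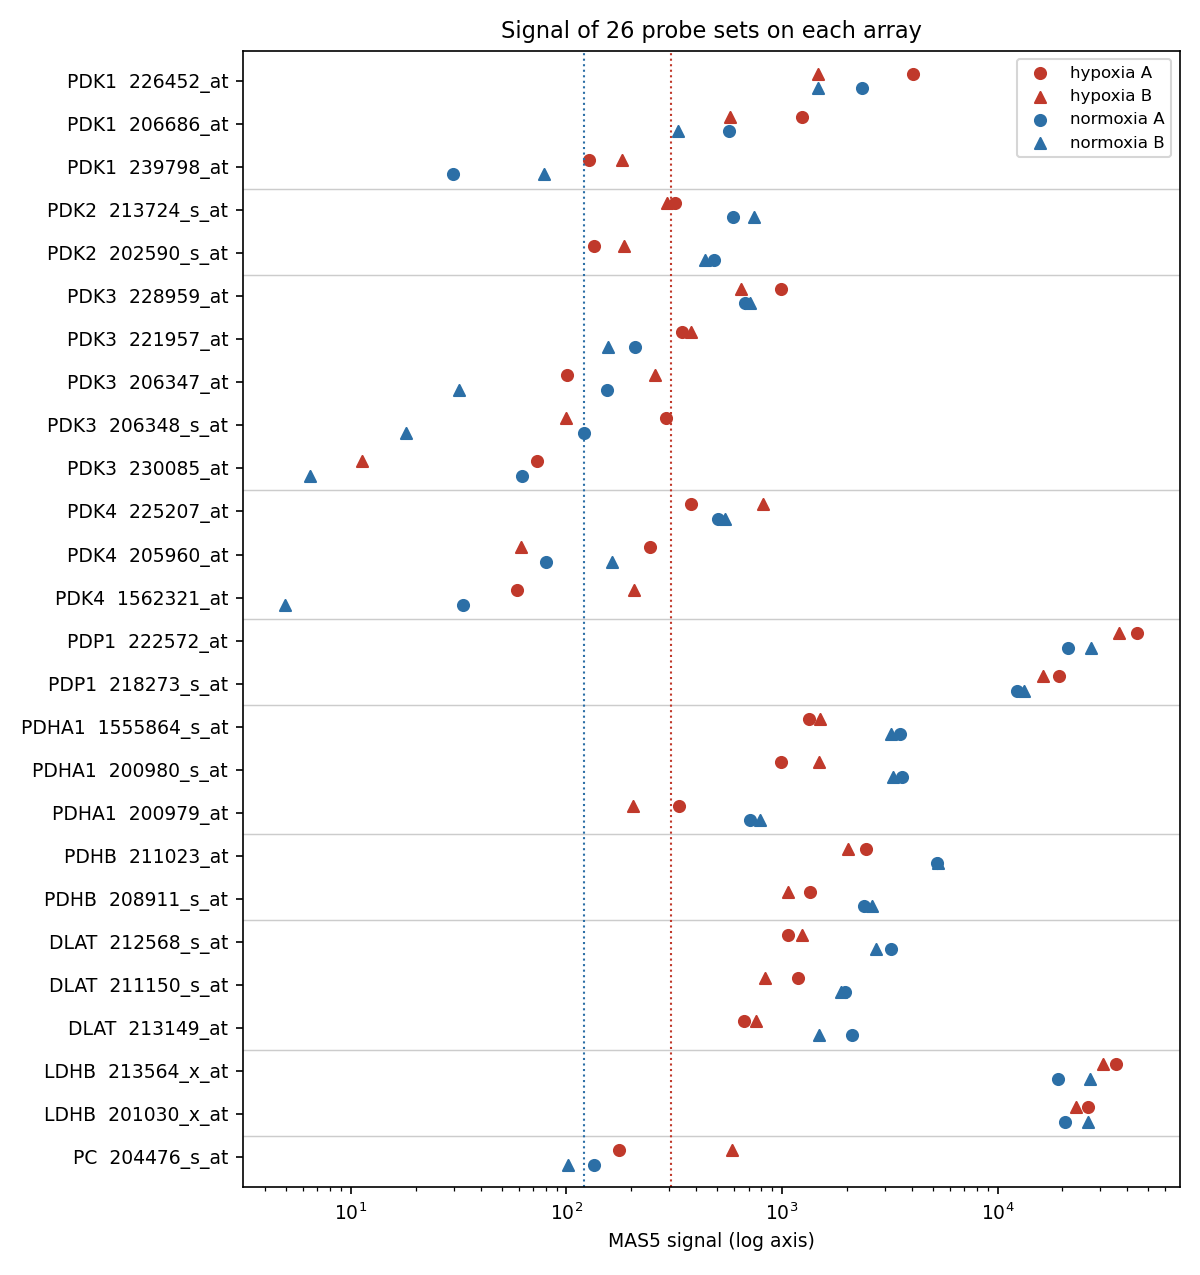
MAS5 signal (log axis) of the 26 probe sets on each array, with hypoxia in red above normoxia in blue, circles for replicate A and triangles for B. Dotted lines mark the highest Bacillus control of either hypoxia array (red, 305.3) and of either normoxia array (blue, 121). All 8 probe sets of PDHA1, PDHB and DLAT have both hypoxia values left of both normoxia values.

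PDHA1, the gene of the E1 alpha subunit that carries the regulatory phosphorylation sites, fell on its 3 probe sets. Probe set 1555864_s_at read 1330.1 and 1496 in hypoxia, against 3508 and 3209.8 in normoxia. Probe set 200980_s_at read 993 and 1478 in hypoxia, against 3599 and 3261 in normoxia. The dimmest, 200979_at, read 333 and 204 in hypoxia, against 713 and 789 in normoxia. On each of them the groups did not overlap, and the normoxia arrays lay close together. The log2 differences were -1.24 ± 0.18 (SE, adjusted p = 0.00118), -1.48 ± 0.22 (adjusted p = 0.00133) and -1.44 ± 0.33 (adjusted p = 0.0102). Hypoxia B of 200979_at lay under the Bacillus control of its array, so its lower level is near background. Leaving out normoxia A (-1.51, adjusted p = 0.0688) or normoxia B (-1.37, adjusted p = 0.106) ended its call.

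PDHB, the gene of the E1 beta subunit, fell on both of its probe sets. Probe set 211023_at read 2440.2 and 2015 in hypoxia, against 5229.9 and 5275 in normoxia, a difference of -1.24 ± 0.18 (SE, adjusted p = 0.00106). Probe set 208911_s_at read 1349 and 1061 in hypoxia, against 2411 and 2605 in normoxia, a difference of -1.05 ± 0.20 (SE, adjusted p = 0.00417). The means of 211023_at were 2227 ± 301 in hypoxia and 5252 ± 31.7 in normoxia (SD, n = 2 each), so the spread lay in the hypoxia arrays. The call of 208911_s_at was lost without normoxia B (adjusted p = 0.0811), at a difference of -0.997, while 211023_at was called under all 16 alternatives.

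DLAT, the E2 gene, fell on its 3 probe sets. Probe set 212568_s_at read 1066 and 1234 in hypoxia, against 3218 and 2717 in normoxia, a difference of -1.35 ± 0.19 (SE, adjusted p = 0.00109). Probe set 213149_at read 667 and 758 in hypoxia, against 2118 and 1490.1 in normoxia, a difference of -1.29 ± 0.24 (SE, adjusted p = 0.00358). Probe set 211150_s_at had the smallest difference of the core, with 1181 and 833 in hypoxia, against 1963 and 1888 in normoxia (-0.94 ± 0.22 SE, adjusted p = 0.0121). In all 3 the hypoxia values lay below the normoxia values without overlap. Without normoxia A the calls of 213149_at (-1.04, adjusted p = 0.110) and 211150_s_at (-0.91, adjusted p = 0.144) were lost, and without normoxia B that of 211150_s_at (-0.97, adjusted p = 0.116).

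Across the core, 8 of 8 probe sets of 3 genes were called lower, where 17.1% of all tested probe sets and 21.7% of tested genes were. Bright probe sets were called more often. With the filter at the 75th percentile of mean signal, which all 8 passed, 3970 of 13638 were called lower and 53.5% in either direction. The median difference of the 8 was -1.26, against 0.05 over all probe sets tested. All 8 had hypoxia below normoxia on both arrays, a pattern found in 33.2% of tested probe sets. Their differences stood between the 10.2 and the 19.8 percentile of all differences, so none of them was among the largest decreases of the array. Probe sets 1555864_s_at of PDHA1, 211023_at of PDHB and 212568_s_at of DLAT were called under each of their 16 alternatives. Probe set 200980_s_at of PDHA1 was called under each of its 14. In the variance model without an intensity trend the adjusted p of these probe sets was 0.0441 to 0.0499, near the threshold. There the calls of 200979_at of PDHA1 (0.0571), 208911_s_at of PDHB (0.0655), and 213149_at (0.0578) and 211150_s_at (0.0917) of DLAT were lost. The direction was lower under all scalings tried. In bulk RNA of one line, less RNA of a gene per cell and fewer cells that express it cannot be told apart.

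Since the core genes fell together, the 250 bases before their RefSeq start sites are shown (GRCh38.p14, 5′ to 3′ on the strand of the gene), with the 5-base cores ACGTG and GCGTG of the hypoxia response element in capitals, on either strand. The windows are chrX:19343677-19343926 on the plus strand for PDHA1, chr3:58433833-58434082 on the minus strand for PDHB and chr11:112025158-112025407 on the plus strand for DLAT.
PDHA1: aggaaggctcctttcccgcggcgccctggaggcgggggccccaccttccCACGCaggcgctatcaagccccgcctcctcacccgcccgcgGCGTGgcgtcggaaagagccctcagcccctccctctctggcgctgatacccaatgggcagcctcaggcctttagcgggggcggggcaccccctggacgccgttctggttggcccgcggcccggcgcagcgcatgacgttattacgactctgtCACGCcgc
PDHB: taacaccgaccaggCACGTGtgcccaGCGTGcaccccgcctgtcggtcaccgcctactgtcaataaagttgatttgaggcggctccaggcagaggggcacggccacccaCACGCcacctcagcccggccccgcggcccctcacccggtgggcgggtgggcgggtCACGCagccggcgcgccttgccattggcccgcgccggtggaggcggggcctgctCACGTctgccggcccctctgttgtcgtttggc
DLAT: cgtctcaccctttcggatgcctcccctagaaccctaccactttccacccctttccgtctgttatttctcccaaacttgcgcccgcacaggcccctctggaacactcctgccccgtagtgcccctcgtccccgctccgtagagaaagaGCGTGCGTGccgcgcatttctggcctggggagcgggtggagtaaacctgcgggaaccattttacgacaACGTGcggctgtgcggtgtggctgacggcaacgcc
PDHA1 had 3 matches to GCGTG, the nearest beginning 8 bases before the start. PDHB had 3 matches to ACGTG, of which 2 are the palindrome CACGTG read on both strands, and 3 to GCGTG. DLAT had 1 match to ACGTG, 35 bases before the start, and 2 to GCGTG that share a base. Over all 35116 windows of the same length, 18.5% held ACGTG, 32.2% held GCGTG and 43.2% held either. A match is a run of letters and not a shown site of binding.

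**Figure D2:**
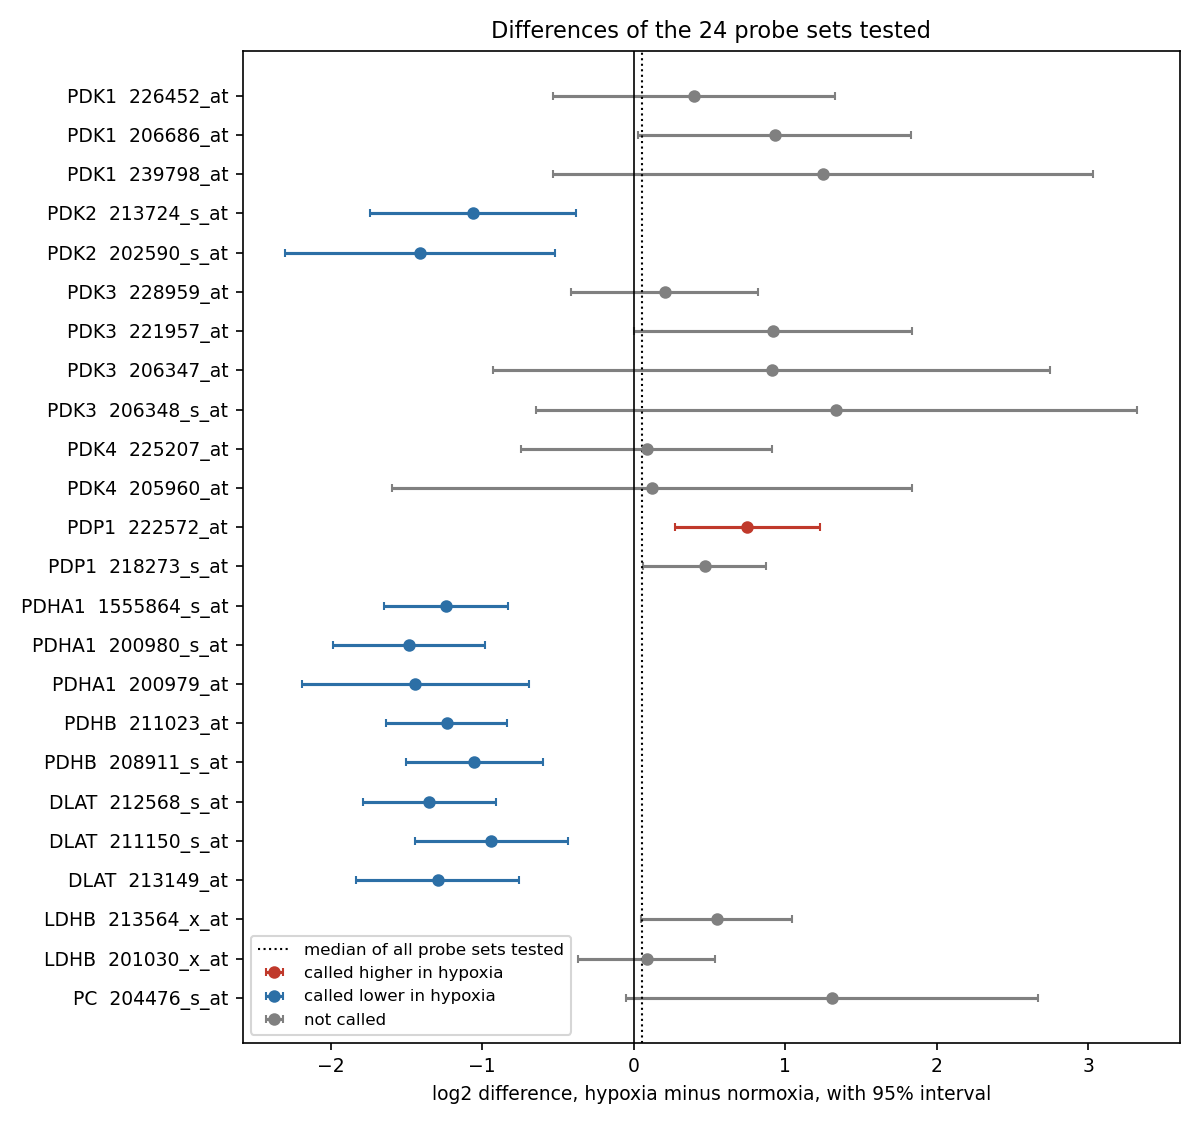
Log2 difference, hypoxia minus normoxia, of the 24 probe sets tested, with 95% intervals from limma; blue marks probe sets called lower, red called higher and grey not called, and the dotted line is the median of all probe sets tested (0.05). The intervals of all core and PDK2 probe sets lie below 0, and those of PDK3 and PDK4 reach from below 0 to above it.

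Among the kinases, 2 of 11 tested probe sets were called lower, both of PDK2, and 0 were called higher with limma. Over all tested probe sets 17.1% were called lower and 13.7% higher, so the kinases' count lower was near the background; at an unadjusted p under 0.05, 3 of the 11 passed, those of PDK2 and 1 of PDK1. PDK2, a kinase gene expressed in most tissues, fell on both probe sets. Probe set 213724_s_at read 320.4 and 292 in hypoxia, against 593 and 744 in normoxia (-1.06 ± 0.30 SE, adjusted p = 0.0262). Probe set 202590_s_at read 135 and 186 in hypoxia, against 486 and 437 in normoxia (-1.41 ± 0.39 SE, adjusted p = 0.0240). Hypoxia lay below normoxia on both letters in each. Both hypoxia values of 202590_s_at were under the Bacillus controls of their arrays. Without normoxia A the adjusted p was 0.133 for 213724_s_at and 0.226 for 202590_s_at, and without normoxia B it was 0.295 and 0.152, at differences of -1.22, -1.34, -0.90 and -1.48, close to those over all arrays. The call of 213724_s_at was also lost under quantile normalization (-0.95, adjusted p = 0.0519) and in a variance model without an intensity trend (adjusted p = 0.0634).

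PDK1 was not called on its 3 probe sets, whose differences were 0.40, 0.93 and 1.25. The brightest, 226452_at, read 4059 and 1474 in hypoxia, against 2344 and 1465 in normoxia, and the groups overlapped. Replicate A was the higher array in both groups, and the difference was 0.79 for the pair of A arrays and 0.0089 for the pair of B arrays. Probe set 206686_at read 1243 and 575 in hypoxia, against 567 and 329.8 in normoxia. Here the hypoxia values lay above both normoxia values, the lower of them by little, and the A arrays differed by 1.10 and the B arrays by 0.76 (0.93 ± 0.40 SE, adjusted p = 0.108). It had an adjusted p of 0.0102 with the replicate letter as a block. The third, 239798_at, read 127 and 181 in hypoxia, against 29.7 and 78.5 in normoxia, all under the Bacillus controls of their arrays. Without hypoxia B, with hypoxia A alone set against the closer normoxia pair, both 226452_at (1.12, adjusted p = 0.00188) and 206686_at (1.47, adjusted p = 0.00165) were called higher, and without hypoxia A the first had a difference of -0.33. Scaled to the hybridization controls the differences were -1.05, -0.48 and 0.15. The 95% interval for 226452_at, -0.53 to 1.33, holds both no change and a doubling.

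The PDK1 window is shown because the gene is a known target of the hypoxia factor. RefSeq gives 2 start sites, and the 250 bases before the first of them, chr2:172555123-172555372, hold neither core. The second window is chr2:172555840-172556089 on the plus strand (GRCh38.p14), with the cores in capitals.
PDK1: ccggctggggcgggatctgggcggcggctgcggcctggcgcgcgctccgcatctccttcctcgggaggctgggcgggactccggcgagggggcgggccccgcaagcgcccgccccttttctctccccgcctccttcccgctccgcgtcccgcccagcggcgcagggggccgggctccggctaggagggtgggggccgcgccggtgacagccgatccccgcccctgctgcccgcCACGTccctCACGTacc
It held 2 matches to ACGTG on the opposite strand, which begin 8 and 17 bases before the start. Of the 14 windows of 9 member genes, 7 held either core, near the 43.2% of all windows that did. LDHB and PDK4 had none in the bases looked at, and the window of PDP1 was not analysed here.

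PDK3, a kinase gene also described as responsive to hypoxia-inducible factor 1, was not called on any of its 4 tested probe sets, with differences of 0.20 to 1.34. The brightest, 228959_at, read 994 and 646 in hypoxia, against 673 and 713 in normoxia, so that the hypoxia values enclosed the normoxia values. Probe set 221957_at read 342 and 378 in hypoxia, against 207 and 155 in normoxia, without overlap (0.92 ± 0.41 SE, adjusted p = 0.118). The other two tested probe sets ranged from 99.3 to 288 in hypoxia and from 18.0 to 155 in normoxia, with groups that overlapped. Leaving out 1 array moved their differences widely, from 0.064 to 1.75 for 206347_at and from 0.44 to 2.23 for 206348_s_at. The fifth, 230085_at, was not tested and read 73.4 and 11.3 in hypoxia, against 62.3 and 6.46 in normoxia. Scaled to the hybridization controls, 3 of the 4 differences turned negative.

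PDK4 was likewise not called. Its brightest probe set, 225207_at, read 377 and 813 in hypoxia, against 504 and 541 in normoxia, and the hypoxia arrays lay on both sides of the normoxia arrays (0.08 ± 0.37 SE, adjusted p = 0.882). Without hypoxia A it was called higher (0.61, adjusted p = 0.0459), and without hypoxia B its difference was -0.45. Probe set 205960_at read 245 and 61.4 in hypoxia, against 80.3 and 162 in normoxia, an overlap with no common order of the arrays. The interval of its difference was -1.60 to 1.84. The third, 1562321_at, lay under the filter, at 58.8 and 207 in hypoxia, against 33.1 and 4.97 in normoxia, all under the Bacillus controls.

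PDP1, the gene of a phosphatase that reactivates the complex, had very bright probe sets. Probe set 222572_at read 44413 and 36660.1 in hypoxia, against 21208 and 27153 in normoxia, without overlap. Its difference was 0.75 ± 0.21 (SE, adjusted p = 0.0256), the only one of the members called higher. Probe set 218273_s_at read 19285 and 16183 in hypoxia, against 12332 and 13217 in normoxia, again without overlap (0.47 ± 0.18 SE, adjusted p = 0.0786). The direction was tied to the scaling. Scaled to the 75th percentile, both were called higher with limma (0.90, adjusted p = 0.0145, and 0.62, adjusted p = 0.0331). Under quantile normalization, which gives each array the same distribution, the differences were -0.083 and 0.04. With the hybridization controls they were -0.71 and -0.99, both above the median of -1.30 over all tested probe sets there. Under these last scalings 222572_at lost its call. The call was also lost without hypoxia A (0.61, adjusted p = 0.127), with no filter (adjusted p = 0.0565) and with a variance model without an intensity trend (adjusted p = 0.128). Without hypoxia B, 218273_s_at was called (0.59, adjusted p = 0.0496).

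LDHB was not called. Both of its probe sets carry the _x_at suffix, which marks sets whose probes may also bind other transcripts. Probe set 213564_x_at read 35429 and 30788 in hypoxia, against 18991 and 26852 in normoxia, without overlap (0.55 ± 0.22 SE, adjusted p = 0.0895). Probe set 201030_x_at read 26289 and 23164 in hypoxia, against 20649.5 and 26189 in normoxia, and the groups overlapped (0.09 ± 0.20 SE, adjusted p = 0.774). Scaled to the 75th percentile, 213564_x_at was called higher (0.70, adjusted p = 0.0477). Quantile normalization turned both signs, to -0.21 and -0.64, the second of them called lower (adjusted p = 0.00227). The hybridization controls also turned both, to -0.91 and -1.37, on either side of the median of -1.30 there. Without normoxia B, 213564_x_at was called higher (0.80, adjusted p = 8.68e-04).

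PC had 1 probe set, 204476_s_at, which read 175 and 587 in hypoxia, against 135 and 101 in normoxia. Hypoxia B stood far above the other 3 arrays, and the A arrays differed by 0.33 and the B arrays by 2.29 (1.31 ± 0.60 SE, adjusted p = 0.129). Without hypoxia A it was called higher (2.12, adjusted p = 0.00344), a call on hypoxia B alone with the spread of the normoxia pair, and without hypoxia B the difference was 0.50. Hypoxia A and normoxia B lay under the Bacillus controls of their arrays.

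**Figure D3:**
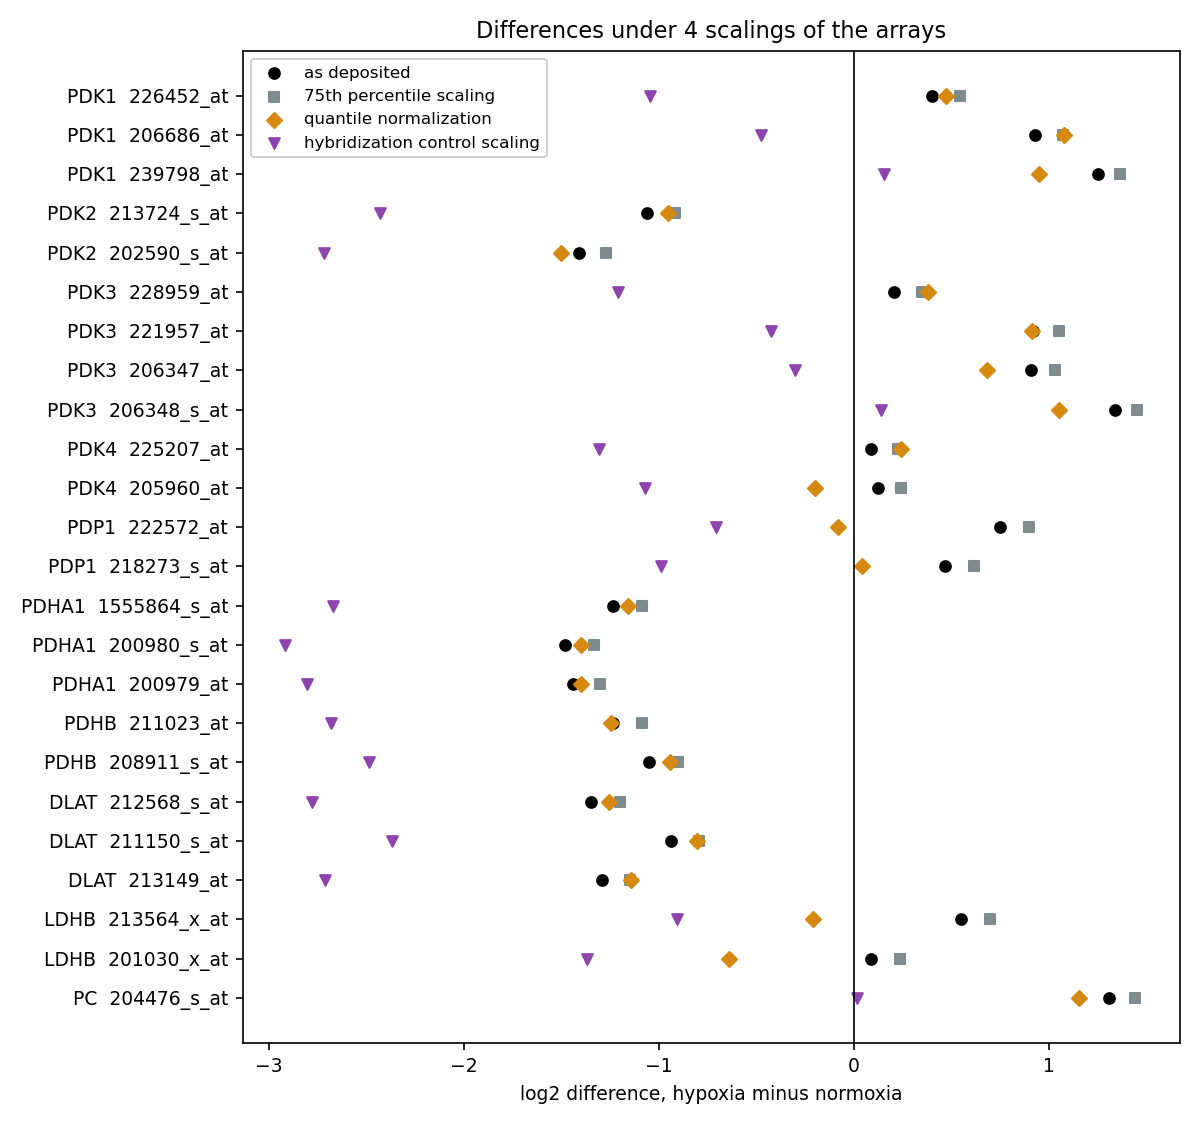
Log2 difference, hypoxia minus normoxia, of the 24 probe sets tested under 4 scalings of the arrays. The probe sets of PDHA1, PDHB, DLAT and PDK2 stay left of 0 under all 4, while those of PDP1 and LDHB lie right of 0 as deposited and left of 0 with the hybridization controls.

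The rest of the pathway was read from 5 lists of 45 genes, each gene by its brightest probe set; 40 had a probe set listed for them alone and 35 were tested. Of these 10 were called higher, 7 were called lower and 18 were not called, against 14.5% of all tested genes called higher and 21.7% called lower. Without hypoxia A the number called lower was 12.

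Among the other parts of the complex, DLD, the gene of the E3 subunit, fell with the core, at 3227 and 3250.4 in hypoxia, against 9486 and 9633 in normoxia (-1.55 ± 0.16 SE, adjusted p = 2.26e-04). Its second probe set had a difference of -2.50 (adjusted p = 0.0173). Next to it, 2 of the 3 tested genes of this list were not called, where only 36.3% of all tested genes were called in either direction. PDHX, the gene of the protein that anchors E3 to the core, read 1890 and 1867 in hypoxia, against 2224 and 2178 in normoxia (-0.23 ± 0.18 SE, adjusted p = 0.361). PDPR, the gene of the regulatory subunit of the phosphatase, had a difference of -0.21. Whether PDHX differed from DLD or the core in its change was not tested.

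E2 needs a lipoyl group, and of the 3 tested lipoylation genes 2 fell, where 21.7% of all tested genes were called lower. LIAS, the lipoic acid synthase gene, read 483 and 156 in hypoxia, against 1666 and 1523 in normoxia (-2.42 ± 0.43 SE, adjusted p = 0.00295). Its hypoxia B value lay under the Bacillus control of that array, and leaving out hypoxia A gave a difference of -3.17, and leaving out hypoxia B one of -1.67. Its call was lost in a variance model without an intensity trend (adjusted p = 0.0623). GCSH, whose product carries the lipoyl group of the glycine cleavage system, read 3277 and 2504 in hypoxia, against 11248 and 11062 in normoxia (-1.95 ± 0.18 SE, adjusted p = 1.53e-04). The median of this list was -1.95, against -0.03 over all genes tested.

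Of 11 tested genes of pyruvate supply and other fates, 3 rose, 2 fell and 6 were not called, where 14.5% of all tested genes were called higher and 21.7% lower, so the count lower was near the background. LDHA, the gene of the lactate dehydrogenase subunit that favours lactate, read 63014 and 61066 in hypoxia, against 22047 and 27939 in normoxia (1.32 ± 0.21 SE, adjusted p = 0.00161), which became 0.38 under quantile normalization and -0.14 with the hybridization controls. ME2, the gene of a mitochondrial malic enzyme, read 968 and 743 in hypoxia, against 2677 and 3255 in normoxia (-1.77 ± 0.21 SE, adjusted p = 4.78e-04). PCK2, the gene of mitochondrial phosphoenolpyruvate carboxykinase, fell by 1.29. Leaving out normoxia A (-1.37) or normoxia B (-1.22) ended that call, as did a variance model without an intensity trend. PKM and ME1 also rose and are named here with their values known: PKM, the pyruvate kinase gene (1.21), and ME1, the cytosolic malic enzyme gene (0.61), whose differences were -0.24 and -0.84 with the hybridization controls. The call of ME1 was lost without hypoxia B (0.37), normoxia A (0.66) or normoxia B (0.57). It was also lost with a pseudocount of 1, the hybridization controls, no filter, each gene averaged over its probe sets or no intensity trend. MPC1 and MPC2, the genes of the mitochondrial pyruvate carrier, were not called, at 0.53 and 0.19.

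**Figure D4:**
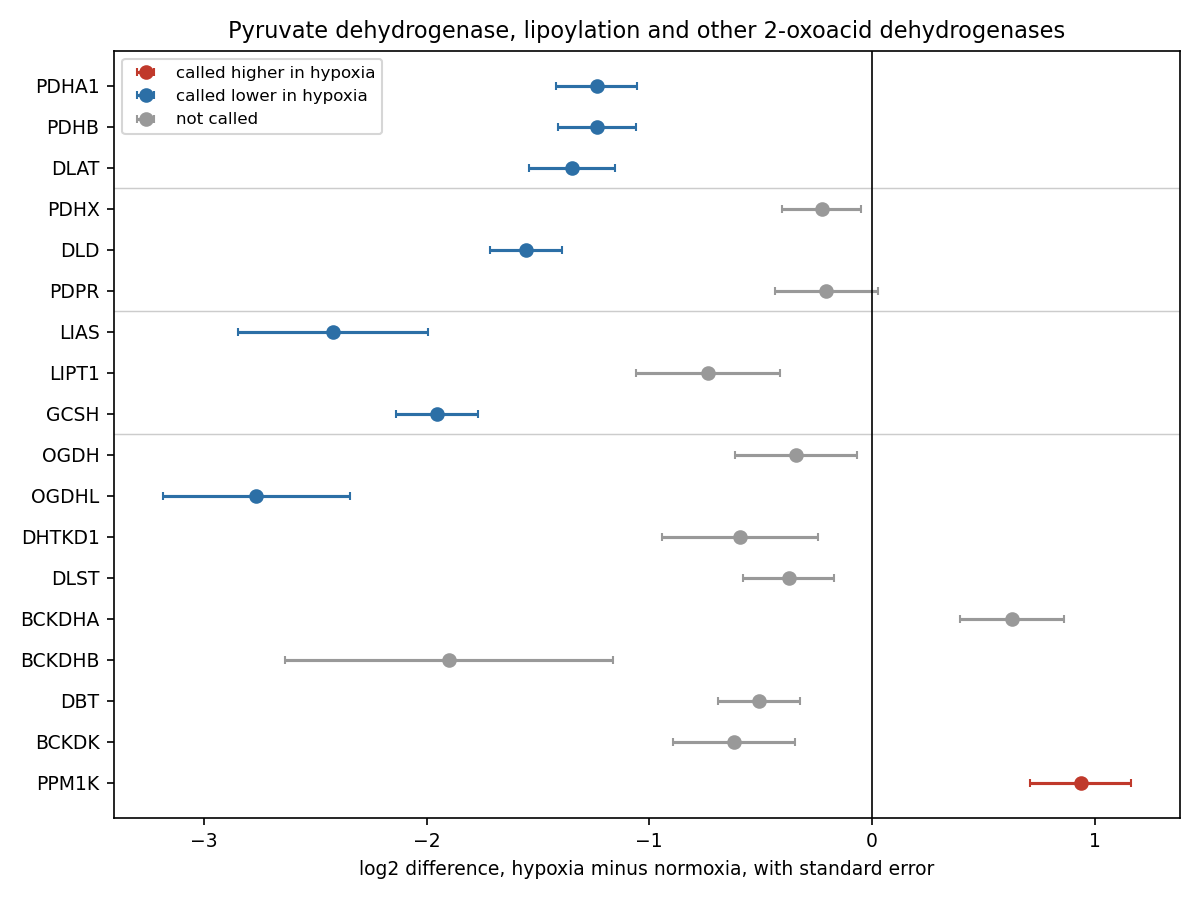
Log2 difference, hypoxia minus normoxia, with its standard error, for the brightest probe set of the core genes, the other parts of the complex, lipoylation genes and other 2-oxoacid dehydrogenases. PDHA1, PDHB, DLAT and DLD lie between -1.55 and -1.24, and PDHX and PDPR at -0.23 and -0.21.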

How the data were processed

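HCT116 RNA (6 µg of total RNA for each labelling, per the labels' protocols) was read on 4 arrays. The authors deposited 1 intensity for each probe set, and the submitters' processing notes name MAS5. No version of it is stated there. Trimmed by 2% at either end, the 4 arrays each averaged 500.1, which would hide a shift common to most genes. No pair of arrays shared more than 1 identical value.

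Groups follow the oxygen condition of the labels. Of the probe sets, 62 controls were left out, 41091 were listed for 1 gene, 1801 for several and 11721 for none. Probe sets with a mean signal at or above 97.4 were tested with limma 3.58.1 in R 4.3.3 (lmFit, eBayes with an intensity trend, two-sided) on log2(signal + 23.7), the added 23.7 being the 25th percentile of every signal. Benjamini-Hochberg adjustment ran over all 27304 probe sets tested. No further normalization was applied. The 17 alternatives were the replicate letter as a block, other pseudocounts, scalings, filters, gene summaries, variance models and thresholds, and leaving out each array. The named genes are every member and, of each list, up to 3 called genes with the largest difference. Outside this rule PDHX, PDPR, MPC1, MPC2, PKM, ME1, OGDH, BCKDK, EPAS1 and HIF1A were named with their values known. So were the hypoxia genes other than the 3 with the largest difference. Members and lists were chosen with earlier results of these data known. Promoter windows are from RefSeq (GRCh38.p14). Plots used matplotlib 3.10.9 under Python 3.11.15.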

Additional observations from a re-analysis of the deposited data

How the results depend on the processing

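The count of 10 member probe sets called lower was also 10 with the replicate block, other pseudocounts, the 75th percentile, no filter and robust variances, and with quantile normalization, where 1 of PDK2 left and 1 of LDHB entered. It was 4 with 1 probe set per gene or with each gene averaged over its probe sets, 5 without a trend, 6 at a threshold of 0.01, and 5 to 10 without 1 array. The 1 called higher became 2 with the replicate block, 3 with the 75th percentile, 0 with quantile normalization, the hybridization controls, no filter, no trend or a threshold of 0.01 (limma; 2, 0, 4, 3 and 4 at an unadjusted p under 0.05), and 1 to 4 without 1 array. All called probe sets, 8406 in the report's setting, were 4803 with 1 probe set per gene, 3438 with each gene averaged, 3824 without a trend, 4725 at 0.01 and 4322 to 11785 without 1 array. They split 44.5% higher as deposited, 53.9% with the 75th percentile and 1.07% with the hybridization controls. Of the list genes, with the hybridization controls 0 were called higher (limma; 0 at an unadjusted p under 0.05) and 17 lower, without a trend 4 were lower, and without 1 array 7 to 12 were higher and 5 to 12 lower.

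Arrays of the same letter share an exp A or exp B title but no stated culture or day. The deviations of same-lettered arrays correlated at 0.06 over tested probe sets. The replicate block gave 10115 called probe sets and, of the members, newly called 206686_at of PDK1 (0.93). Of 349 values of single member probe sets under the alternatives, 299 kept direction and call, 19 lost the call, 9 gained it and 22 turned sign. With the hybridization controls the sign turned for PDK1 (-1.05 and -0.48), PDK3 (-1.21, -0.42 and -0.31), PDK4 (-1.31 and -1.07), PDP1 (-0.71 and -0.99) and LDHB (-0.91 and -1.37), which follows from the shift of all probe sets. With quantile normalization it turned for 205960_at of PDK4 (-0.20), 222572_at of PDP1 (-0.083) and LDHB (-0.21 and -0.64); the cause was not tested. Without 1 array the differences ranged from -0.33 to 1.12 for 226452_at of PDK1, from -0.10 to 0.51 for 228959_at of PDK3, from -0.45 to 0.61 for 225207_at and from -0.71 to 0.95 for 205960_at of PDK4, and from -0.086 to 0.26 for 201030_x_at of LDHB. Signals near the Bacillus controls, as for 9 of the 26 probe sets on at least 1 array, limit the dimmer kinase probe sets and PC.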

Other observations

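Of 9 tested genes of the other 2-oxoacid dehydrogenases, built on the same plan as pyruvate dehydrogenase, 1 rose, 1 fell and 7 were not called, where 14.5% of all tested genes were called higher and 21.7% lower, so neither count stood above the background. OGDHL, a gene similar to that of the E1 subunit of 2-oxoglutarate dehydrogenase, read 65.0 and 134 in hypoxia, against 808 and 756 in normoxia (-2.77 ± 0.42 SE, adjusted p = 0.00140), with both hypoxia values under the Bacillus controls. PPM1K, the gene of the phosphatase of the branched-chain complex, read 1482 and 1199 in hypoxia, against 726 and 646 in normoxia (0.94 ± 0.23 SE, adjusted p = 0.0133). Leaving out normoxia A (1.02) or normoxia B (0.86) ended its call. So did averaging each gene over its probe sets, no intensity trend, and the hybridization controls, where its difference was -0.49. OGDH, the main E1 gene of 2-oxoglutarate dehydrogenase, and BCKDK, the kinase gene of the branched-chain complex, were not called, at -0.34 and -0.62.

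Of 9 tested genes of transcription factors known to act on PDK genes, 6 rose, 1 fell and 2 were not called, where 14.5% of all tested genes were called higher and 21.7% lower. PPARA, a nuclear receptor gene, read 1211 and 1728 in hypoxia, against 246 and 381 in normoxia (2.16 ± 0.30 SE, adjusted p = 9.74e-04). FOXO3, a forkhead factor gene, read 12444 and 11552 in hypoxia, against 2715 and 2952 in normoxia (2.07 ± 0.17 SE, adjusted p = 8.18e-05). PPARD, another nuclear receptor gene, read 5519 and 5848 in hypoxia, against 1438 and 1316 in normoxia (2.03 ± 0.17 SE, adjusted p = 1.06e-04). EPAS1, which also rose, read 9854 and 11830 in hypoxia, against 2642 and 2969 in normoxia (1.94 ± 0.18 SE, adjusted p = 1.40e-04). Its call was lost only with the hybridization controls (0.49), and none of its other probe sets was called. The gene that fell was HIF1A (-0.51, adjusted p = 0.0486), and its call was lost in 8 of 16 alternatives. It was lost without hypoxia B (-0.40), normoxia A (-0.50) or normoxia B (-0.51). It was also lost with a pseudocount of 1, the 75th percentile, no filter, each gene averaged over its probe sets or no intensity trend. With the hybridization controls the differences of the 3 receptor and forkhead genes named first were 0.76, 0.62 and 0.58, and none of them was called there. The calls of PPARA and PPARD were also lost when each gene was averaged over its probe sets. PDK4, described as a target of several of these factors, was not called on any probe set.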
